A study of Mus musculus with 19 samples.

Results

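The genes followed here, 9 of the 48709 counted, belong to the DNA methylation machinery and were measured in RNA from mouse hippocampal CA1. They were chosen by symbol and comprised the DNA methyltransferases Dnmt1, Dnmt3a and Dnmt3b, the 5-methylcytosine oxidases Tet1, Tet2 and Tet3, and the reader proteins Mbd1, Mbd2 and Uhrf1. All 9 had enough counts to be tested. The animals were 7 months of age and formed 3 groups with 1 library per animal. WT control (n = 6) were littermates without the transgenes, APP control (n = 6) were APPPS1-21 mice, and APP anti-miR-mix (n = 7) were APPPS1-21 mice in which 3 microRNAs (miR-148a-3p, miR-146a-5p and also miR-181a-5p) were inhibited together. All 19 animals received lipid nanoparticles in the dorsal hippocampus, loaded with inhibitors or with control oligonucleotides. The titles of the WT control libraries also contain the name of the mixture, and the study's description of these mice as carrying the control oligonucleotide was followed. The APPPS1-21 transgenes, APP with the Swedish mutation among them, are under the neuronal Thy1 promoter, so the model drives amyloid from neurons. The tissue was a dissected piece of CA1 that contains neurons, glia and vessels. In such tissue fewer cells of a type and less RNA per cell cannot be told apart.

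DNA methylation in mammals sits mostly on cytosines followed by guanine and, in neurons, also on other cytosines. Dnmt3a and Dnmt3b place new marks, while Dnmt1 copies existing marks onto the new strand after replication and is guided there by Uhrf1, which binds the half-methylated site. Tet enzymes oxidise 5-methylcytosine and so start its removal, and Mbd proteins bind methylated DNA and recruit repressors. MicroRNAs pair through their seed with target transcripts, mostly in the 3′ untranslated region, and lower their stability or translation. Dnmt1 and Dnmt3b have been described as targets of miR-148a, Dnmt3b through a site in its coding sequence. Blocking a microRNA would be read in RNA-seq as a rise of targets that it destabilises, whereas an effect on translation alone is not seen in such data.

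The microRNA sequences are shown because the inhibitors and the sites in the 9 transcripts are defined by them. They come from RefSeq on GRCm38.p6, with the seed (positions 2 to 8 from the 5′ end) in capitals. The 3 inhibited microRNAs come first, and the other 2 members of the miR-148a seed family follow.
miR-148a-3p: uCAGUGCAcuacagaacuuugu
miR-146a-5p: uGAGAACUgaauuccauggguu
miR-181a-5p: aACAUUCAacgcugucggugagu
miR-148b-3p: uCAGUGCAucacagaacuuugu
miR-152-3p: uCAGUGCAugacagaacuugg

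The inhibitor of miR-148a is printed with the stretch that pairs with the seed in capitals, beside the negative control oligonucleotide listed with the inhibitors.
inhibitor miR-148a-3p: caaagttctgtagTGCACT
negative control: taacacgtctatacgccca
The inhibitor was complementary to all 19 bases from position 3 to position 21 of miR-148a-3p, of which 6 are seed positions. Within that span miR-148b-3p differed from miR-148a-3p by C9U and U10C, with 17 of 19 positions in common. miR-152-3p differed by C9U, U10G and U20G, with 16 in common. In each such token the miR-148a base is given first and positions are counted from the 5′ end. The 3 microRNAs thus carry the same seed and are distinguished by 2 or 3 bases in the rest of the inhibited span. The libraries were made from polyA RNA and do not give microRNA levels. The study assessed the inhibited microRNAs by qPCR, which is not used here.

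The transcripts of the 9 genes were searched on the sense strand for TGCACTG, the complement of the miR-148a seed, in GENCODE M21 transcripts on GRCm38. The 4 matches that were followed by an A, the form with the longest seed pairing, are printed with the match in capitals, because they are the letters through which miR-148a could pair with these genes.
Dnmt1, 3′ UTR: cagagccccacgTGCACTGatgtttttaac
Uhrf1, 3′ UTR: gttttcagagagTGCACTGactgggtgtca
Dnmt3a, coding sequence: gacatcctgtggTGCACTGaaatggaaagg
Dnmt3b, coding sequence: gacgttttgtggTGCACTGagctcgaaagg
The Dnmt1 match (chr9:20907492-20907498, minus strand) began 23 bases after the stop codon and was present in 3 of 4 coding transcripts. The Uhrf1 match (chr17:56323115-56323121, plus strand) began 613 bases after the stop codon, in 4 of 4 coding transcripts. TGCACTG in the 3′ UTR, followed by an A or not, was found in 3.16% of 1234 genes with a 3′ UTR length like that of Dnmt1. It was found in 11.8% of 2247 genes of a length like that of Uhrf1, and in 15.7% of all 15459 genes searched. Dnmt1 and Uhrf1, the only members with TGCACTG in a 3′ UTR, are the only members on the study's list of predicted miR-148a targets. The list holds TargetScan predictions and was not taken as separate support.

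The Dnmt3a match (chr12:3906867-3906873, plus strand) and the Dnmt3b match (chr2:153684461-153684467, plus strand) lay at the same distance, 158 bases, before the respective stop codons. The 2 windows shared 24 of 30 bases, as the genes are paralogs. The match was present in 5 of 6 coding transcripts of Dnmt3a and in 6 of 10 of Dnmt3b. Over all genes 16.5% held TGCACTG in coding sequence, followed by an A or not. Tet3 carried a match in its coding sequence that was not followed by an A, and Tet1, Tet2, Mbd1 and Mbd2 carried none.

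For the other microRNAs of the mixture, the letters searched were AGTTCTC for miR-146a-5p and TGAATGT for miR-181a-5p. The 3′ UTR of Tet1 held 3 matches to the former and 1 to the latter, each in 2 of 3 coding transcripts. Uhrf1, Tet3 and Mbd1 each held 1 match to miR-146a-5p in a 3′ UTR, in 4 of 4, 1 of 2 and 1 of 3 coding transcripts. Only that of Mbd1 was followed by an A. Dnmt3a and Dnmt3b each held 1 match to miR-181a-5p in a 3′ UTR, in 2 of 6 and 10 of 10 coding transcripts. In coding sequence, Dnmt3a held a match to miR-146a-5p followed by an A in 4 of 6 coding transcripts and Tet3 a match not followed by an A in 2 of 2, where 13.7% of all genes held a coding match. No member held a coding match to miR-181a-5p. Over all genes 13.3% carried the first of these in the 3′ UTR and 19.1% the second. The share was larger among genes with 3′ UTRs as long as that of Tet1, of which 56.0% held a miR-146a match and 74.6% a miR-181a match, and it was 64.0% for miR-181a at the length of Dnmt3a and 41.3% for miR-146a at that of Tet3. For Mbd1 and Uhrf1 it was 21.3% and 7.39% (miR-146a), and for Dnmt3b 18.1% (miR-181a). These shares count a match whether or not an A follows it. A match describes the letters of a transcript and not binding.

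Total counts were between 19362343 and 37018917 per library. Thy1 and App, whose sequence is in the transgenes, separated the 13 transgenic libraries from the 6 WT control libraries, with 18117 to 20734 normalized counts of Thy1 for WT control, 36153 to 62866 for APP control and 43203 to 54141 for APP anti-miR-mix. Marker genes of neurons, astrocytes, microglia and oligodendrocytes were detected in every group. The 5 markers of CA1 pyramidal neurons summed to between 11783 and 21235 normalized counts and the 4 of dentate gyrus granule cells to between 851 and 3018. WT control 1, WT control 5 and APP anti-miR-mix 6 stood apart by marker genes, among them those of choroid plexus, which summed to up to 2406 normalized counts in the WT control group and 1633 in the APP anti-miR-mix group where APP control had 505 to 688. Results were therefore also computed without these 3 libraries.

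The level of each gene was set against the others as normalized counts per kb of exonic sequence, where a normalized count is a read count divided by the size factor of its library. Mbd2 was the highest, with a median of 336 per kb over the 19 libraries, and was followed by Dnmt1 with 279.7, Dnmt3a with 216 and Mbd1 with 149.8. Tet3 and Tet2 had medians of 127 and 126 per kb, Tet1 had 31.2, Uhrf1 11.7 and Dnmt3b 7.54. The oxidases Tet2 and Tet3 did not separate: Tet3 was the higher of the pair in 12 of 19 libraries. Mbd2 and Dnmt1 also overlapped, with Mbd2 higher in 17 of 19 libraries, and so did Uhrf1 and Dnmt3b, with Uhrf1 higher in 15 of 19. All other neighbours in this order kept it in 19 of 19 libraries. Annotated exons of all isoforms were summed, so the per kb level of a gene with a long isoform that CA1 does not use is understated.

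**Figure D1:**
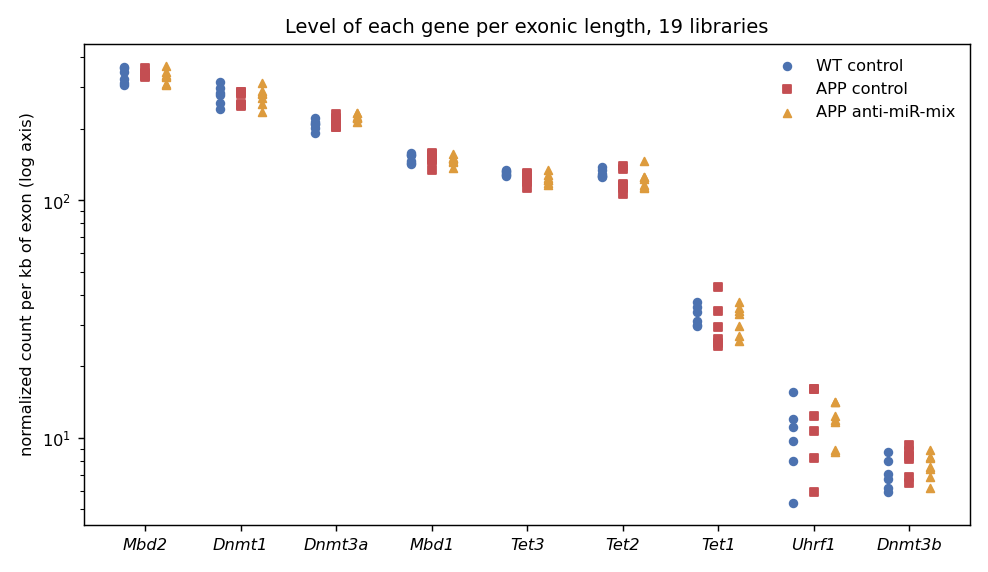
Normalized counts per kb of exon (log axis) of the 9 genes in 19 libraries, ordered by the median over all libraries, with circles for WT control (n = 6), squares for APP control (n = 6), triangles for APP anti-miR-mix (n = 7). Dnmt3b and Uhrf1 lie at 5.32 to 16.1 per kb in every group and the 3 groups overlap for each gene.

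The de novo enzymes lay far apart in this order. Dnmt3a, the main enzyme of its kind in adult neurons, exceeded Dnmt3b by a median of 27.1 times per kb, between 21.8 and 36.6 times in single libraries. Dnmt1 exceeded Dnmt3b by a median of 36.7 times. Among the oxidases, Tet2 was at a median of 4.10 times and Tet3 at 3.85 times the level of Tet1. Set against the 19237 expressed genes with an annotated length, Mbd2 lay above 78.5% and Dnmt1 above 73.7%, whereas Dnmt3b lay above 13.1%. Uhrf1, which in dividing cells works with Dnmt1, had raw counts of 15 to 75 per library and Dnmt3b 27 to 55. The raw counts of the remaining 7 genes were between 348 (Tet1) and 4959 (Dnmt3a) per library.

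Each of the 9 genes was then compared between the groups, first for the effect of the transgenes, then for the effect of the inhibitors within transgenic mice, and last between treated transgenic and wild-type mice. The first and last comparisons share the WT control libraries, and the second shares the APP control libraries with the first. No member passed the threshold, an adjusted p under 0.05 over all genes tested, in any of them. Over all genes, DESeq2 called 5.00% of 18161 genes in APP control against WT control, 0.00% of 19284 for the inhibitors (APP anti-miR-mix against APP control) and 9.51% of 18161 in APP anti-miR-mix against WT control. At an unadjusted p under 0.05, 1, 0 and 1 of the 9 members were found in the same order, beside 13.7%, 2.86% and 19.4% of all genes. The edgeR quasi-likelihood test also called 0 members in each comparison. The ranges of the libraries overlapped for all 9 genes in all 3 comparisons, where 1.57%, 0.0207% and 3.42% of all genes had ranges that did not overlap.

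**Figure D2:**
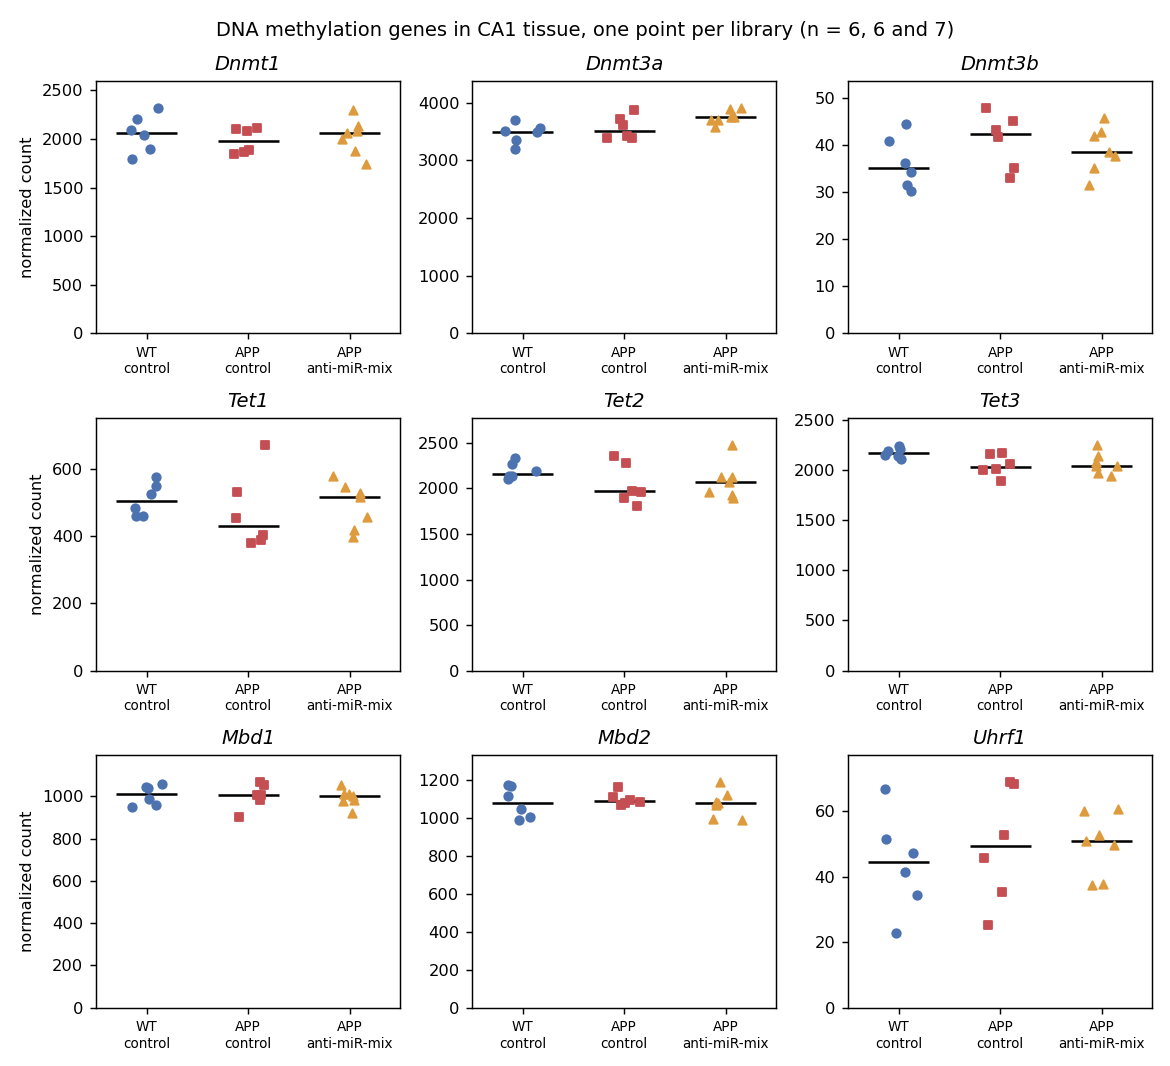
Normalized counts of the 9 genes (vertical axes start at 0), one point per library and the groups WT control, APP control and APP anti-miR-mix from left to right (n = 6, 6 and 7), with a bar at each median. The libraries of the 3 groups overlap for every gene, and those of Dnmt3a in APP anti-miR-mix, 3576 to 3904, lie in the upper part of the range.

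Dnmt1, the maintenance methyltransferase (ENSMUSG00000004099, chr9:20907209-20959888), had 1792, 2066 and 2319 normalized counts as lowest, median and highest of the WT control libraries. The values were 1847, 1983 and 2116 for APP control, and 1748, 2063 and 2297 for APP anti-miR-mix. The group with the inhibitors held both the lowest of all 19 libraries and the second highest, so the groups lay within each other. With the inhibitors Dnmt1 differed from APP control by 0.03 on the log2 scale (SE 0.07, DESeq2 adjusted p = 1). The 95% interval of this difference reached from -0.10 to 0.17, or from -6.96% to 12.6%. Against WT control, the log2 difference was -0.05 (SE 0.07) for APP control and, for APP anti-miR-mix, -0.02 (SE 0.07), with adjusted p of 0.883 and 0.934.

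Dnmt3b (ENSMUSG00000027478, chr2:153649450-153687730), a de novo enzyme known mainly from the early embryo, had 30.2, 35.2 and 44.4 normalized counts in WT control. The values were 33.0, 42.3 and 47.8 in APP control and 31.5, 38.5 and 45.7 in APP anti-miR-mix. The median of APP control was the highest of the 3, with wide overlap. The log2 difference was 0.18 (SE 0.17, adjusted p = 0.754) in APP control against WT control and -0.07 (SE 0.16, adjusted p = 1) for the inhibitors against APP control. The interval of the latter reached from -0.38 to 0.23, with its upper end at a rise of 17.6%. Counting alone gives Dnmt3b a coefficient of variation of 16.3%, and the 19 libraries had 13.9%.

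Dnmt3a (ENSMUSG00000020661, chr12:3806007-3914443), the de novo enzyme of postmitotic neurons, had 3188, 3496 and 3698 normalized counts in WT control, and the values were 3388, 3511 and 3862 in APP control. In APP anti-miR-mix the values were 3576, 3749 and 3904, and 6 of these 7 libraries lay above every WT control library. Dnmt3a was the member that came closest to the threshold. The log2 difference of APP anti-miR-mix against WT control was 0.12 (SE 0.04, 95% interval 0.03 to 0.20, unadjusted p = 0.00578, DESeq2 adjusted p = 0.0576), a level 8.39% higher. Against APP control the difference was 0.08 (SE 0.04, adjusted p = 1), and 2 of 7 libraries lay above all APP control libraries. APP control differed from WT control by 0.04 (SE 0.04, adjusted p = 0.815).

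The call on Dnmt3a turned on the processing. Over the alternatives and the libraries left out in turn, the adjusted p in APP anti-miR-mix against WT control ranged from 0.0191 to 0.195 while the log2 difference stayed between 0.09 and 0.15. It was under the threshold in 8 of these 29 fits. They were those with TMM size factors (0.0386), a 2-group fit (0.0412), the replicate number as a block (0.0310), a linear term for the adjustment number described further on (0.0416), limma on the deposited log2 values (0.0242), and those without WT control 1 (0.0191), APP control 3 (0.0379) or APP anti-miR-mix 4 (0.0447). With edgeR it was 0.0912, and without the 3 libraries that stood apart 0.0821. A short antisense gene, Dnmt3aos, shares 133 of the 16642 exonic bases of Dnmt3a. It had 73 counts over all libraries, and whether counting used strand was not given in the sources used here.

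Tet1 (ENSMUSG00000047146, chr10:62804570-62908996) had 458, 504 and 576 normalized counts in WT control. It had 379, 428 and 669.6 in APP control and 397, 516 and 578 in APP anti-miR-mix. APP control held both the lowest and the highest of all 19 libraries, with a coefficient of variation of 23.9% against 9.66% in WT control. Of the 6 APP control libraries 4 lay below every WT control library and 1 above all of them. The log2 difference was -0.11 (SE 0.13, adjusted p = 0.846) for APP control against WT control and 0.06 (SE 0.13, adjusted p = 1) for the inhibitors against APP control.

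Tet2 (ENSMUSG00000040943, chr3:133463679-133545139) was at 2109, 2163 and 2339 in WT control, 1802, 1968 and 2352 in APP control and 1896, 2072 and 2475 in APP anti-miR-mix. As for Tet1, 4 of 6 APP control libraries lay below every WT control library and 1 above. The log2 difference was -0.10 (SE 0.07, adjusted p = 0.610) in APP control against WT control and 0.03 (SE 0.07, adjusted p = 1) for the inhibitors against APP control. The antisense gene Gm42567 shares 43 exonic bases with Tet2 and had 42 counts in all.

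Tet3 (ENSMUSG00000034832, chr6:83362373-83459084), an oxidase described as responsive to neuronal activity, had 2113, 2170.2 and 2238 normalized counts in WT control. This was the narrowest group of any member, with a coefficient of variation of 2.19%. APP control had 1891, 2036 and 2173 and APP anti-miR-mix 1939, 2039 and 2248. Of the APP control libraries 4 of 6, and of the APP anti-miR-mix libraries 5 of 7, lay below all WT control libraries. The log2 difference was -0.09 (SE 0.04, unadjusted p = 0.0485, adjusted p = 0.342) in APP control and -0.07 (SE 0.04, adjusted p = 0.326) with the inhibitors, each against WT control, and 0.01 (SE 0.04) between the transgenic groups. The medians of Tet1, Tet2 and Tet3 were thus each below the WT control medians in APP control, and none passed the test.

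The readers Mbd1 and Mbd2 had close medians in all groups. Mbd1 (ENSMUSG00000024561, chr18:74267605-74282732), which binds methylated and, through a further domain, unmethylated CpG sites, had medians of 1013, 1004 and 1002 normalized counts in WT control, APP control and APP anti-miR-mix. Its libraries lay between 901 and 1066. Mbd2 (ENSMUSG00000024513, chr18:70568189-70626131), a subunit of a nucleosome remodelling and deacetylase complex, had medians of 1078, 1087 and 1079, and its libraries lay between 985 and 1185. The log2 differences of both genes were between -0.03 and 0.02 in all 3 comparisons. The 95% intervals of Mbd1 for the inhibitors against APP control reached from -0.10 to 0.08 and those of Mbd2 from -0.14 to 0.07.

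Uhrf1 (ENSMUSG00000001228, chr17:56303321-56323486), the partner of Dnmt1 that carries a miR-148a match in its 3′ UTR, had 22.7, 44.3 and 66.7 normalized counts in WT control. APP control had 25.3, 49.2 and 68.7, and APP anti-miR-mix 37.4, 50.8 and 60.5, within the range of the other groups. Uhrf1 was the most variable member, with a coefficient of variation of 28.5% over the 19 libraries where counting alone gives 15.4%. The log2 difference for the inhibitors against APP control was 0.02 (SE 0.23, adjusted p = 1), and its interval from -0.44 to 0.47 covers changes from -26.3% to 38.9%. Against WT control it was 0.15 (SE 0.25) in APP control and 0.17 (SE 0.24) in APP anti-miR-mix, with adjusted p of 0.910 and 0.790.

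**Figure D3:**
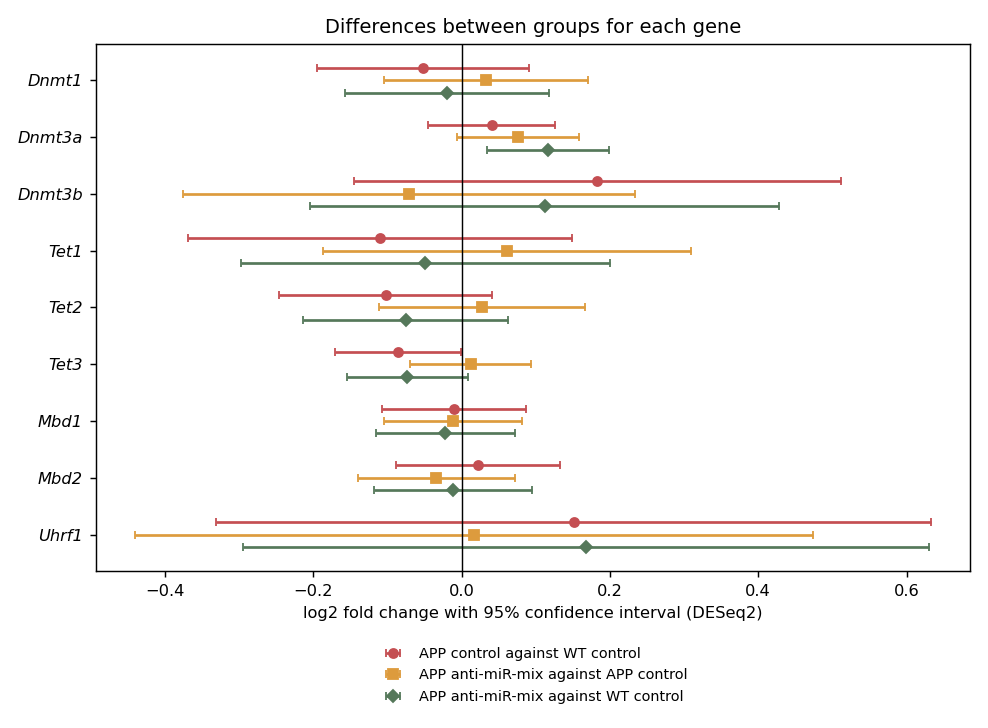
Log2 fold change of each gene with its 95% confidence interval (DESeq2) for APP control against WT control (circles), APP anti-miR-mix against APP control (squares) and APP anti-miR-mix against WT control (diamonds). The intervals of Dnmt3a in APP anti-miR-mix against WT control (0.03 to 0.20) and of Tet3 in APP control against WT control lie to one side of 0, and those of Dnmt3b, Tet1 and Uhrf1 are the widest.

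Over the 9 genes the median log2 difference was -0.01 in APP control against WT control, 0.02 for the inhibitors and -0.02 in APP anti-miR-mix against WT control. Over all genes the medians were -0.01, 0.00 and -0.02. Leaving aside the 3 genes with the widest intervals, Dnmt3b, Tet1 and Uhrf1, the 95% intervals of the other 6 for the inhibitors against APP control lay within -9.24% and 12.6%. Without the 3 libraries that stood apart, 0 members passed the threshold in each comparison as well.

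The groups differed in their cell type markers while the members did not pass the test. Of 13 microglia markers 11 rose in APP control against WT control (median log2 difference 0.92), and of 12 markers of microglia that respond to amyloid 10 rose (median 1.82). The summed level of the microglia markers was 16175 to 25614 normalized counts in WT control, 25201 to 53343 in APP control and 33708 to 53358 in APP anti-miR-mix. Of 8 neuronal markers 0 changed (median -0.13), and their summed level was 197579 to 243555, 186579 to 220648 and 189629 to 222198 in the same order. Of 9 astrocyte markers 1 rose against WT control in both transgenic groups (median 0.21 in each). Of 5 endothelial markers 1 rose in APP control (median 0.13) and 2 in APP anti-miR-mix (median 0.25). Their summed levels were 2351 to 2906, 2725 to 3620.2 and 2470.3 to 3583 normalized counts for endothelium and 178214 to 224406, 197908 to 254074 and 193565 to 256883 for astrocytes, so the groups overlapped. Of the markers of CA1 pyramidal neurons, dentate gyrus granule cells, oligodendrocytes and their precursors, and choroid plexus 0 passed. Of 12 genes of proliferating cells, in which Uhrf1 and Dnmt1 are usually high, 1 rose in APP control (Cdk1) and 0 in APP anti-miR-mix. No marker of these lists passed the threshold for the inhibitors against APP control, and no marker was at 0 in any group. The part of the cell mixture in the level of each member was not tested.

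The libraries also differed in a way that crosses the groups. The table of log2 values that the authors deposited departs from log2(CPM + 1) by a gene-specific slope multiplied by a whole number from 1 to 5 for each library. What the number stands for is not given in the sources used here, and it is called the adjustment number. Each of the numbers 1 to 4 occurred in all 3 groups, and 5 in 1 WT control library. The share of mitochondrial counts moved with it, from 2.84 to 3.39% in the 8 libraries numbered 1 or 2 to 3.76 to 4.87% in the other 11. With the groups in the model, 27.8% of 16304 genes varied with the number (DESeq2 likelihood-ratio test, chosen after the data were seen), among them 3 of the 9 members, Dnmt1, Tet1 and Tet2. Cell type markers varied with it as well. By the same test 3 of 4 markers of dentate gyrus granule cells were called (median log2 slope 0.21 per step), 4 of 8 of neurons (0.02), 3 of 13 of microglia (-0.11) and 2 of 12 of amyloid-responsive microglia (-0.16), and 1 each of 4 oligodendrocyte precursor and 4 choroid plexus markers tested. Of the markers of CA1 pyramidal neurons, astrocytes, oligodendrocytes, endothelium and proliferating cells 0 were called. The granule cell markers summed to 851, 981 and 1513 normalized counts (lowest, median and highest) in the 8 libraries numbered 1 or 2, and to 974, 2125 and 3018 in the 5 numbered 3. In the 6 numbered 4 or 5 they summed to 860.3, 1373 and 1967, so the ranges overlapped. The sums of the sex genes (Xist and Y-linked genes) did not overlap between these sets of libraries. They were 2931 to 4458 normalized counts at 1 or 2, 4869 to 5308 at 3 and 5456 to 6337 at 4 or 5. The part of these markers in the slopes of the members was not tested.

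Tet1 was higher in libraries with a higher number. It had 379, 437 and 525.9 normalized counts (lowest, median and highest) in the 8 libraries numbered 1 or 2, and 454, 563 and 669.6 in the 6 numbered 4 or 5. The log2 slope was 0.14 per step (SE 0.03, DESeq2 adjusted p = 0.000291). Tet2 moved the same way, from 1802, 1944 and 2267 to 2127, 2308 and 2475, with a log2 slope of 0.07 per step (SE 0.02, adjusted p = 0.00101). Both slopes passed the threshold whichever of the 19 libraries was left out, and in edgeR (adjusted p = 0.00313 and 0.00516). The share of all genes with a rising slope past the threshold was 17.2% of 17426.

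Dnmt1 was lower in libraries with a higher number, at 2063, 2119 and 2319 normalized counts in the 8 libraries numbered 1 or 2 and 1792, 1881 and 2081 in the 6 numbered 4 or 5. Its log2 slope was -0.05 per step (SE 0.02, adjusted p = 0.0494). It passed the threshold in 6 of the 19 fits that left out a library, with adjusted p from 0.0229 to 0.104, and edgeR gave 0.0503. Over all genes, 15.3% had a falling slope past the threshold. Tet3, Dnmt3a, Dnmt3b, Mbd1, Mbd2 and Uhrf1 did not pass either test of the number.

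**Figure D4:**
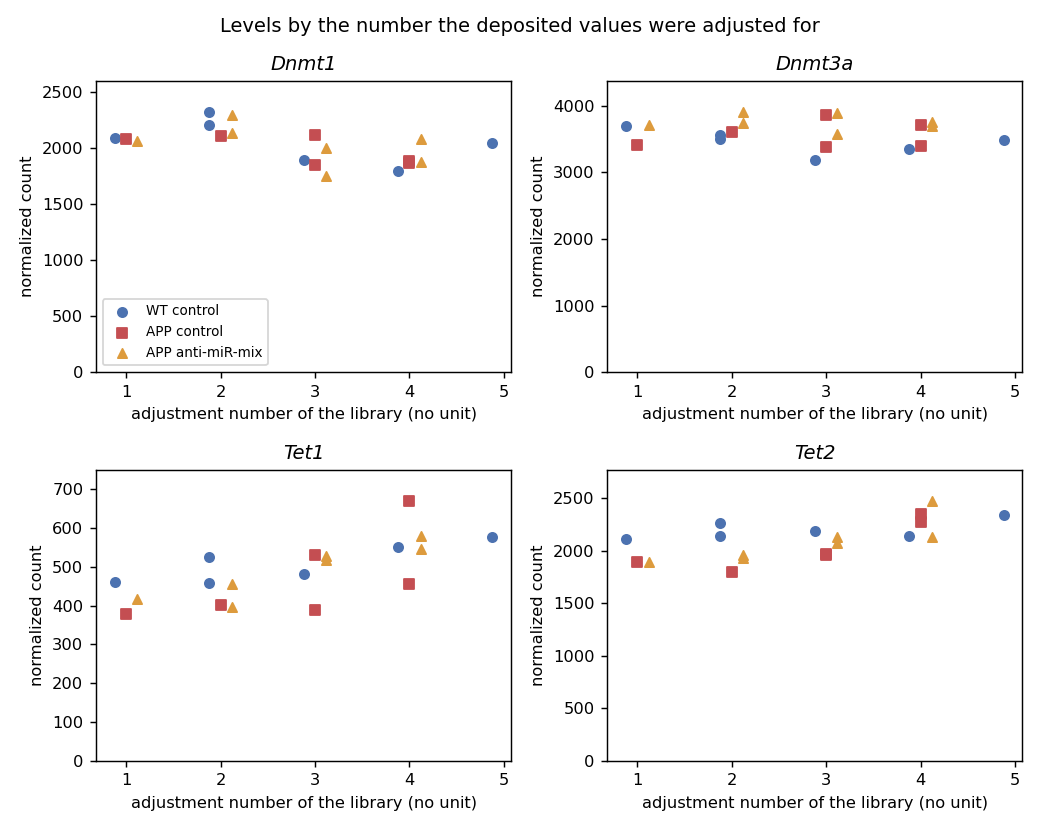
Normalized counts (from 0) of Dnmt1, Dnmt3a, Tet1 and Tet2 against the adjustment number of each library, with WT control as circles, APP control as squares and APP anti-miR-mix as triangles, set slightly apart. Tet1 and Tet2 lie higher at 4 and 5 than at 1 and 2 (medians of 563 and 437 for Tet1), and Dnmt1 lies higher at 1 and 2.

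Because the numbers were spread over the groups, the comparison was also made within each of them. For the inhibitors against APP control, Dnmt1 was higher at 2 of 4 numbers, with log2 differences of -0.01, 0.08, -0.08 and 0.08 at 1, 2, 3 and 4. Dnmt3a was higher at all 4, by 0.12, 0.09, 0.04 and 0.07, and so was Tet1, by 0.14, 0.08, 0.20 and 0.03. No other member had the same sign at all 4 numbers in this comparison. Tet3 was lower than WT control at all 4 in both transgenic groups, with log2 differences between -0.16 and -0.03 for APP control and, with the inhibitors, between -0.19 and -0.03. Against WT control, Dnmt3a in APP anti-miR-mix differed by 0.00, 0.11, 0.23 and 0.15. Each of these values rests on 2 to 4 libraries and carries no test. The share of all genes with the same sign at all 4 numbers is not given here. No trend of these members is therefore read from the signs. With the number as a factor in the model, 0 members passed the threshold in any comparison, and Dnmt3a in APP anti-miR-mix against WT control had an adjusted p of 0.0777.

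The libraries in which Dnmt1 was high were also compared with those of other genes. After the group means were subtracted, the genes whose levels across the 19 libraries were most like Dnmt1, among 12764 genes with a mean of at least 100 normalized counts, were Slc4a3 (Pearson r = 0.930), Dchs1 (0.929) and Klc1 (0.928). For Dnmt3b, with its low counts, they were Nsa2 (0.760), 2810402E24Rik (0.735) and 5430416N02Rik (0.735). These correlations are descriptions over libraries that share the adjustment number and the mitochondrial share.

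The partners of the 9 genes were taken as 5 lists of 48 genes, of which 47 had enough counts. In APP control against WT control 2 of the 47 (4.26%) passed the threshold, 1 in each direction, beside 5.00% of all genes. In APP anti-miR-mix against WT control 3 (6.38%) passed, 2 higher and 1 lower, beside 9.51%. These shares were not above those of all genes, and the values of the genes that passed are given as descriptions of single genes. With the inhibitors against APP control 0 of 47 passed. The medians over the 47 were -0.02, -0.03 and 0.00 in the order of these sentences, beside -0.01, -0.02 and 0.00 over all genes.

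Zbtb4, which encodes a zinc finger protein that binds methylated CpG, was the reader that passed the threshold. The WT control libraries had 5306, 5747 and 5921 normalized counts. The values were 5053, 5134 and 5282 in APP control and 5111, 5287 and 5438 with the inhibitors. All 6 APP control libraries lay below all 6 WT control libraries, which held for 1.57% of all genes in either direction. The log2 difference was -0.14 (SE 0.03, DESeq2 adjusted p = 0.000867) in APP control and -0.10 (SE 0.03, adjusted p = 0.0198) in APP anti-miR-mix, each against WT control. Mbd3, Mbd4, Mbd5, Mbd6, Zbtb33, Zbtb38 and Uhrf2 passed in neither. With the adjustment number as a factor, Zbtb4 passed in both comparisons and Mbd3 also in APP control against WT control (log2 difference 0.13, adjusted p = 0.0452). The edgeR test and limma on the deposited log2 values called Zbtb4 in neither comparison. In APP anti-miR-mix against WT control it was also lost with TMM size factors (adjusted p = 0.0687), with the 2-group fit and without the 3 libraries that stood apart, and Mbd5 passed in the last 2 of these.

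Of 18 genes of active demethylation, Gadd45g, a stress-induced gene of a family linked to DNA repair, passed the threshold. Its values were 258, 299 and 308 in WT control, 292, 369 and 422 in APP control and 287, 372 and 403 in APP anti-miR-mix, so that the ranges overlapped at their ends. The log2 difference was 0.31 (SE 0.10, adjusted p = 0.0397) in APP control and 0.32 (SE 0.09, adjusted p = 0.0116) in APP anti-miR-mix, each against WT control. Idh1, which makes the 2-oxoglutarate that Tet enzymes use, rose by 0.20 (SE 0.07, adjusted p = 0.0381) in APP anti-miR-mix against WT control, from a median of 1252 to 1424 normalized counts, and in APP control its difference was 0.16 (adjusted p = 0.202). The largest values on this list, Gadd45a at 0.43 (adjusted p = 0.166) in APP control and Neil2 at 0.39 (adjusted p = 0.115) in APP anti-miR-mix, did not pass. With edgeR, Gadd45g passed in APP anti-miR-mix but not in APP control, and Idh1 did not pass. With the adjustment number as a factor, Gadd45g likewise passed in APP anti-miR-mix and not in APP control (adjusted p = 0.0886). Without the 3 libraries that stood apart, neither Gadd45g nor Idh1 passed in APP anti-miR-mix against WT control. Idh1 was also lost there with the replicate number as a block.

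Among the 8 partners of maintenance methylation, 10 genes of the methyl donor cycle and 3 other writers, 0 passed in any comparison. Ahcyl1 passed in APP control against WT control with the adjustment number as a factor. The partners of maintenance lay between -0.15 (Hells) and 0.19 (Hdac1) on the log2 scale in APP control against WT control. The genes of the methyl donor cycle lay between -0.10 (Ahcyl1) and 0.25 (Shmt1). With the inhibitors against APP control, the 2 lists lay between -0.14 (Cdca7) and 0.13 (Lig1), and between -0.18 (Shmt1) and 0.04 (Mtrr). Of the writers, Dnmt3c had at most 8 counts in a library and was not tested.

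**Figure D5:**
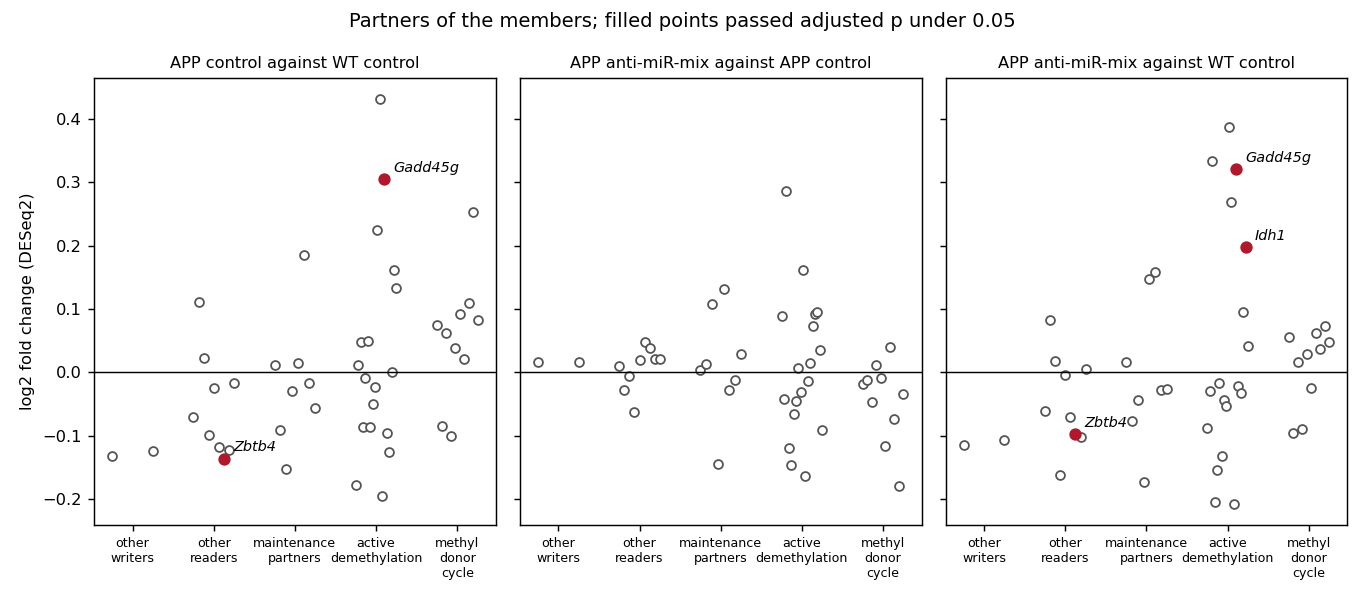
Log2 fold change (DESeq2) of 47 genes that work with the 9 members, by list and comparison, with filled and named points for adjusted p under 0.05. Zbtb4 is lower and Gadd45g higher in both transgenic groups against WT control, Idh1 is filled in APP anti-miR-mix against WT control, and no point is filled for the inhibitors against APP control.

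Dnmt1 and Dnmt3b were also set beside 14 other genes reported as miR-148a targets. With the inhibitors against APP control 0 of the 14 passed the threshold. The median of the list was 0.01 and its highest value 0.13 (Abca1).

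The list of predicted miR-148a targets used by the study, of which Dnmt1 and Uhrf1 are members, had 609 genes in the fit. With the inhibitors against APP control 0 of them passed the threshold. There 308 (50.6%) were higher, beside 49.2% of all genes, with a median log2 difference of 0.00 beside 0.00 over all genes. In APP control against WT control 25 of the 609 (4.11%) passed, 16 higher and 9 lower, beside 5.00% of all genes. Of the 609, 186 (30.5%) had a positive difference, beside 45.6% of all genes, and the median was -0.05 beside -0.01. In APP anti-miR-mix against WT control 56 (9.20%) passed, 27 higher and 29 lower, beside 9.51% of all genes. There 206 (33.8%) had a positive difference, beside 45.6% of all genes, and the median was -0.04 beside -0.02. The list was not compared with genes of a like 3′ UTR length. The difference of Dnmt1 for the inhibitors was 0.03 and that of Uhrf1 0.02.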

How the data were processed

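RNA-seq counts of 19 CA1 libraries were analysed. The authors made the deposited read counts by aligning single-end reads of 50 bases to mm10 with STAR (2.5.2b) and counting with featureCounts (Subread 1.5.1), and they are not normalized. The authors also deposited log2 values, log2(CPM + 1) adjusted for a number per library, which were used only for an alternative with limma (3.58.1). A gene needed 5 counts or more in 50% of the samples (19297 genes). As in the study, DESeq2 (1.42.0) was used, with 3 groups in a single fit, Wald tests, independent filtering and Benjamini-Hochberg adjustment. Alternatives were edgeR (4.0.16), other size factors and filters, a 2-group fit, terms for the number or the replicate, and omitted libraries. Fits were tested on simulated data. Symbols, positions and exon lengths came from GENCODE M21 (GRCm38), which matched 48349 of 48709 identifiers. The closest 2 libraries of a group differed beyond sampling noise (chi-square per gene 4.60). Named genes were the 9 members, list genes past the threshold, the extremes of a list, and the 3 genes most like Dnmt1 and Dnmt3b. The members and lists were chosen with earlier results of these data known. No p-value covers more than the spread between animals. Some genes of the lists are not reported here.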

Additional observations from a re-analysis of the deposited data

Results flagged for a closer look

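A library far from the others of its group was looked for in 27 sets, the 9 genes in each of 3 groups. It was found for Tet2 in APP anti-miR-mix 7, with 2475 normalized counts where the other 6 libraries of the group had 1896 to 2127. Chance gives about 1 in 20 such sets, or 1.35 of 27. The library has the adjustment number 4, at which Tet2 lay between 2127 and 2475 in 5 libraries of 3 groups.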

How the results depend on the processing

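Between the 2 control groups, and for the inhibitors (APP anti-miR-mix against APP control), 0 members passed the threshold under every alternative run. In APP anti-miR-mix against WT control 1 member, Dnmt3a, passed with TMM size factors (adjusted p = 0.0386, log2 difference 0.13) and a 2-group fit (0.0412, 0.12). It also passed with the adjustment number as a linear term (0.0416, 0.12, chosen after the data were seen) and with limma on the deposited log2 values (0.0242, 0.15). Over all genes these fits called 1655, 1878, 2371 and 1910 in this order, beside 1727 in the main fit of 19297 genes. When a library was left out 0 to 1 members passed, where 1169 to 2012 genes were called over all.

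Among partner genes, the 2 calls of APP control against WT control became 0 with edgeR, and 1 with the 2-group fit, without the 3 libraries and on the deposited values, and were 1 to 2 when a library was left out. With the number as a factor they were 3 (Zbtb4, Mbd3 and Ahcyl1), Gadd45g being lost, and with the linear term 3 (Zbtb4, Gadd45g and Ahcyl1). Zbtb4 remained whichever library was left out, and Gadd45g was lost without WT control 2 or 6, APP control 1, 2, 4 or 5, or APP anti-miR-mix 4 or 5. The 3 calls of APP anti-miR-mix against WT control became 1 with edgeR (Gadd45g), 1 without the 3 libraries (Mbd5) and 6 with the linear term, were 2 with TMM size factors and on the deposited values (both without Zbtb4) and with the replicate block (without Idh1), were 4 with the number as a factor (Lig3 added) and 3 with the 2-group fit (Mbd5 in place of Zbtb4), and were 1 to 4 when a library was left out, with 1 left (Gadd45g) without WT control 2 or 3 or APP anti-miR-mix 6. Over all genes, the calls of APP control against WT control were 908 in the main fit and 621 with edgeR. They were 746 with the 2-group fit, 1139 without the 3 libraries, 874 with the number as a factor and 1329 with the linear term. Those of APP anti-miR-mix against WT control were 1727 in the main fit, 1169 with edgeR and 1530 without the 3 libraries. They were 1878 with the 2-group fit, 1733 with the number as a factor and 2371 with the linear term. The cause of these changes was not tested.

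With the replicate number as a block, Dnmt3a passed in APP anti-miR-mix against WT control (0.0310, 0.12), so that 1 member passed. Over all genes this fit called 2202 in that comparison, beside 1727 in the main fit. Same-numbered libraries had correlations from -0.16 to 0.59, 12 of 18 above 0.1, with a median of 0.22 beside -0.01 for other pairs. Of the 18 pairs 12 shared the adjustment number, as did 15 of 102 other pairs. The labels give the number no meaning and not every pair was above 0.1, so the block was not taken as a pairing of animals, and whether same-numbered libraries share a batch was not tested. Of 783 further values of single members, 775 kept their side of the threshold, and 36 had the other sign, 0 of them past it. Sex could not enter as a covariate because all libraries were of 1 sex. Dnmt3b varied no more than counting alone gives, and Uhrf1 varied more.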
